A study of Mus musculus with 32 samples.

Results

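The late step of myotube formation in untreated mouse C2C12 cells was measured by setting 48 h in differentiation medium against 24 h. C2C12 is an established line of skeletal myoblasts from mouse muscle. The rule took the 2 arrays of untreated cells at 48 h and the 2 arrays of untreated cells at 24 h in the trichostatin A (TSA) arm, which are 4 of the 32 Affymetrix arrays of the series. All members of the rule were found. The TSA arm held 20 arrays, TSA-treated and untreated, at 0 h (still in growth medium), 4, 12, 24 and 48 h of differentiation with 2 arrays a group. Total RNA of whole cultures was hybridised. TSA inhibits the zinc-dependent histone deacetylases, and its dose is not stated in the labels. Other arrays are set beside the step below: TSA-treated C2C12 cells at 48 h and 24 h (n = 2 each), and C2C12 cells with the empty pHan vector at 36 h and 12 h of differentiation (n = 3 each), from a separately scaled arm that also holds cells with pHan carrying Sir2. Every group is thus the same cell line, the untreated cells carry no transgene that the labels name, and nothing in the labels says that arrays of a group came from separate cultures, so each p-value here reflects only how far these samples differ, a spread that may be technical.

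When serum is withdrawn, myoblasts stop dividing, turn on the transcription factor myogenin, and then make the proteins of the sarcomere, the repeating contractile unit in which thick myosin filaments slide along thin actin filaments. Mononucleated cells fuse into multinucleated myotubes that build calcium stores, acetylcholine receptors and an energy supply suited to contraction, while some cells stay undifferentiated as reserve cells. In a bulk culture a lower level of a gene can mean fewer cells that express it or less RNA per cell, and these cannot be told apart here.

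The 4 arrays were even in scale. Their trimmed mean intensity lay between 800.63 and 800.69, the medians ran from 267 to 281, and values at or below 0 made up 21.8% to 24.2%. The 24.2% was that of 48 h replicate 2 and the highest of the 20 arrays of the arm. The ratio of 3′ to 5′ signal of Gapdh, a sign of RNA integrity, was 0.852 to 0.944 and that of actin 1.08 to 1.19. The rank correlation between the arrays of a group was 0.911 at 48 h and 0.939 at 24 h. The 0.911 was the lowest of the arm, in which the highest was 0.966. The median absolute log2 difference between the 2 arrays was 0.273 at 48 h and 0.209 at 24 h. A spread estimated from all 20 arrays may thus understate that of the 48 h arrays. The array of 48 h replicate 1 was no closer to its own group than to 24 h replicate 3 (0.913), and these 2 arrays share the suffix b in their titles, whose meaning the labels do not give. Since each group held 1 array with the suffix and 1 without, the comparison is balanced for it, and with the suffix as a covariate 1548 probe sets passed, against 1405 without it.

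Of 7453 probe sets tested, 1405 (18.9%) differed between 48 h and 24 h at a Benjamini-Hochberg adjusted p under 0.05 in limma, with the spread of each probe set estimated from all 20 arrays of the arm. At 48 h 586 (7.86%) were higher and 819 (11.0%) lower, and the median log2 change of all tested probe sets was -0.01. As the background of the list counts below, 455 of 5636 genes (8.07%) were higher and 644 (11.4%) lower, counted as 1 probe set per gene. The lists were chosen with earlier results of these data known, so an excess of a list over these shares is a description and not a test. The lower ones moved further: 340 probe sets fell and 155 rose by more than 1 on the log2 scale, and 58 fell and 22 rose by more than 2. The arrays of the groups did not overlap in 4028 of the tested probe sets (54.0%), which include all 1405 that passed, so a lack of overlap adds nothing to a call. All log2 changes were taken on log2(intensity + 137.7), so they understate the change of dim genes, and values after ± are standard errors. With only the 4 arrays of the comparison in the fit, 93 probe sets passed. Leaving out 24 h replicate 2 left 876 calls and leaving out 24 h replicate 3 left 893, against 1152 and 1095 without 48 h replicates 1 and 2.

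**Figure D1:**
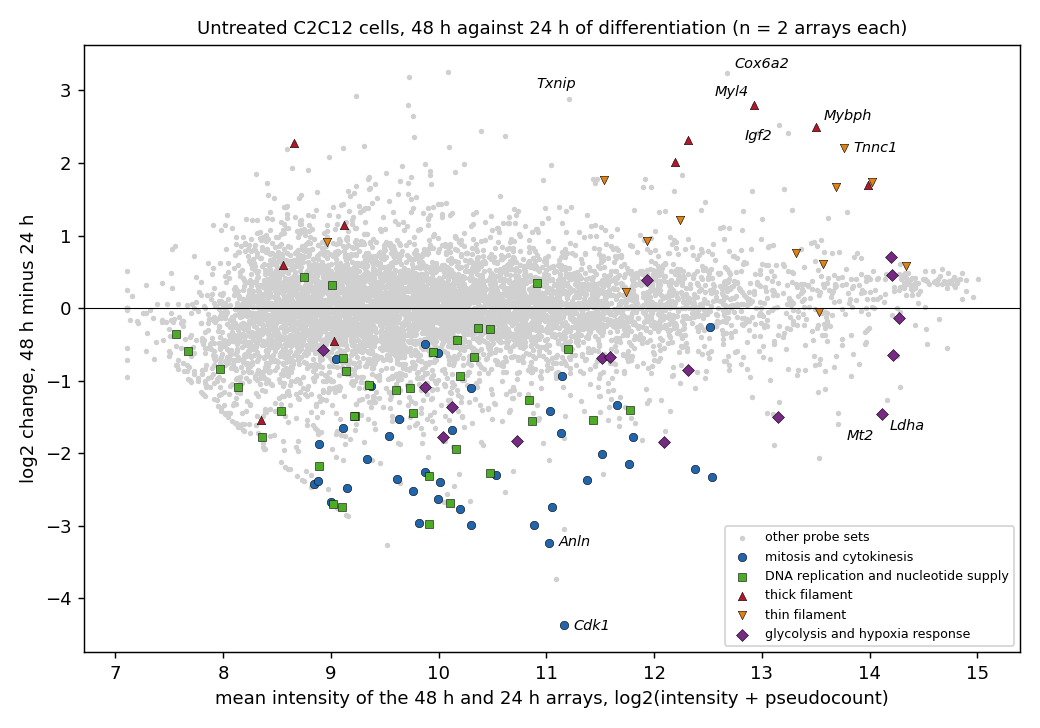
Each point is a tested probe set; the x axis is the mean of the 48 h and 24 h arrays as log2(intensity + 137.7) and the y axis the log2 change, 48 h minus 24 h, with the genes of 5 lists in colour. Thick and thin filament genes lie at the upper right, up to 2.79 for Myl4, and mitosis and replication genes at the lower side, down to -4.36 for Cdk1.

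The contractile filaments held several of the highest and most changed genes at 48 h. Of 10 measured genes of the thick filament 6 rose, 0 fell and 4 did not pass, with a median log2 change of 1.85 against -0.01 over all genes. Myl4, the embryonic and atrial myosin light chain, had an intensity of 13187 and 13736 on the 48 h arrays, against 2021 and 1647 on the 24 h arrays (log2 change 2.79 ± 0.16, adjusted p = 1.81e-07). For Mybph, which binds myosin in the thick filament, the intensities were 19069.6 and 20129.6 on the 48 h arrays, against 3394 and 3358 on the 24 h arrays (log2 change 2.49 ± 0.14, adjusted p = 1.68e-07). Myh3, the embryonic myosin heavy chain, had 8661 and 7985 at 48 h, against 1572 and 1562 at 24 h (log2 change 2.31 ± 0.14, adjusted p = 2.22e-07). In all of these the arrays of a group lay close to each other and the groups were separated by 5.31-fold (Myh3) to 7.34-fold (Myl4) on the intensity scale. The fast regulatory light chain gene Mylpf had 6629.7 and 8139 at 48 h, against 1723 and 1706 at 24 h (log2 change 2.01 ± 0.14, adjusted p = 8.81e-07). The alkali light chain gene Myl1 had 22499 and 26779 at 48 h, against 7690.0 and 7318 at 24 h (log2 change 1.69 ± 0.29, adjusted p = 0.00168). Myh7, the slow myosin heavy chain, was listed below 0 on both 24 h arrays and had 557 and 504 on the 48 h arrays (adjusted p = 3.64e-08), so a fold cannot be stated and its p may be an understatement.

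Thin filament genes were mostly already high at 24 h and rose further. Of 12 measured, 9 rose and 0 fell, median 0.92; the count was 4 without 24 h replicate 3 and 4 without 48 h replicate 2. Tnnc1, the slow troponin C that binds calcium, had 21445 and 23952 on the 48 h arrays, against 4835 and 4770.0 on the 24 h arrays (log2 change 2.21 ± 0.26, adjusted p = 9.19e-05). Acta1, skeletal muscle actin, had 19919 and 20049 on the 48 h arrays, against 6566 and 5824 on the 24 h arrays (log2 change 1.67 ± 0.27, adjusted p = 0.000931). Both genes had no overlap between the groups, as had every called probe set, and their 2 arrays of 48 h differed by far less than the step. Tnnt3, the fast troponin T, had 4601 and 4313 at 48 h, against 1215 and 1214 at 24 h (log2 change 1.76 ± 0.24, adjusted p = 0.000239). Tnni1, the slow troponin I that holds the filament inactive without calcium, reached 25524 and 25484 at 48 h, against 7635 and 7465 at 24 h (log2 change 1.74 ± 0.34, adjusted p = 0.00342). Actc1, cardiac actin, the form made early in myotubes, was already at 16600 on 1 of the 24 h arrays and changed least among these genes. Its intensities were 24101 and 25059 at 48 h, against 16600.4 and 16280.3 at 24 h (log2 change 0.58 ± 0.14, adjusted p = 0.0148), and the call was lost without 24 h replicate 2 (adjusted p = 0.0604), 24 h replicate 3 (0.0721) or 48 h replicate 2 (0.067). Tnnt2, the cardiac troponin T of embryonic muscle, had 14071 and 14820.2 at 48 h, against 10794 and 8171 at 24 h (log2 change 0.61 ± 0.20, adjusted p = 0.0455), and did not pass without 24 h replicate 3 (adjusted p = 0.28), 48 h replicate 1 (0.0998) or 48 h replicate 2 (0.153).

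Among proteins that anchor the filaments, 4 of 12 genes of the Z-disc, M-band and titin rose and 0 fell (median 0.57). Ankrd2, a titin-bound protein that responds to stretch, had 2183 and 2065 at 48 h, against 426 and 167 at 24 h (log2 change 2.45 ± 0.28, adjusted p = 7e-05). Myom2, myomesin 2 of the M-band, had 2073 and 2902 at 48 h, against 437 and 301 at 24 h (log2 change 2.37 ± 0.21, adjusted p = 7.85e-06). Ankrd1, the cardiac relative of Ankrd2, was high at both times, with 10576 and 10531 at 48 h, against 4778 and 6123 at 24 h (log2 change 0.95 ± 0.17, adjusted p = 0.00172). Des, the intermediate filament desmin, had 2564 and 2554 at 48 h, against 1869.5 and 1876 at 24 h and did not pass (log2 change 0.42 ± 0.18, adjusted p = 0.127).

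**Figure D2:**
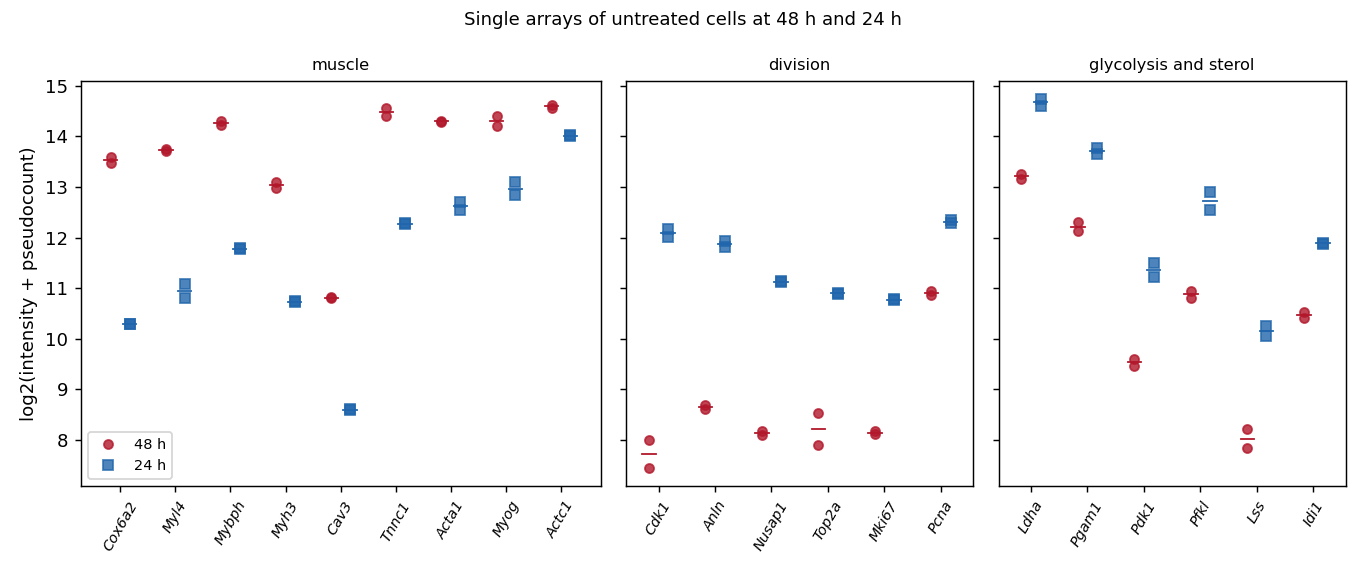
Intensities of single arrays of untreated cells at 48 h (circles, left of each pair) and 24 h (squares) as log2(intensity + 137.7), with the group mean as a line (n = 2 each), for muscle, division, and glycolysis and sterol genes. In each gene drawn the 48 h arrays lie wholly above or wholly below the 24 h arrays; Myog is drawn and did not pass the threshold.

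Promoters of genes of this group are shown because the DNA letters bound by the myogenic factors, the E-box CANNTG, can be read in them. The sequences are those of RefSeq on build GRCm38.p6, from 250 bases before to 50 bases after the start of the gene, in lower case with each CANNTG in capitals. The Mybph promoter lies at chr1:134193198-134193497 on the plus strand and the Ankrd2 promoter at chr19:42035777-42036076 on the plus strand.
Mybph: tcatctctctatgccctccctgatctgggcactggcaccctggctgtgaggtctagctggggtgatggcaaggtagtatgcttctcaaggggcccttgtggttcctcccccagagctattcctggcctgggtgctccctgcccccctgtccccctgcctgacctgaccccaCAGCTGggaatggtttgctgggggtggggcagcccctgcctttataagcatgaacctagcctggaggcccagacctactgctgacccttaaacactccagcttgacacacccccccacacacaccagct
Ankrd2: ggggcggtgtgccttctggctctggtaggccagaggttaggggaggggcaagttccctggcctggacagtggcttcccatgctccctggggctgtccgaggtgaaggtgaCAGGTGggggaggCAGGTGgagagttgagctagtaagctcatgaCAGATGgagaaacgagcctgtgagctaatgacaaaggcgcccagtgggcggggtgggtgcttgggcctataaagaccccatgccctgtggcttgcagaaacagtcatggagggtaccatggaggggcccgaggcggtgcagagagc
Mybph held 1 E-box, of the form CAGCTG, and Ankrd2 held 3, while the 300 bases of Myl4 held none. Over all of the muscle lists, from filaments to energy enzymes, 26 genes that rose had a promoter in the table, and 13 of them (50%) held CAGCTG on either strand, against 13.8% of the 4540 tested genes with a promoter and 16.1% of all 27025 promoters. CANNTG, which contains CAGCTG, was in 24 of the 26 (92.3%), against 62.1% of tested genes and 72.2% of all. A CArG box, searched by that name's standard letters on both strands, was in 3 of the 26 (11.5%), against 1.63% of tested genes, and a MEF2 site in 1 (3.85%), against 1.41%. Among all genes that rose, 16.0% of 368 held CAGCTG, and among those that fell 11.3% of 524 did. A match says only that the letters are there.

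Some of the genes that couple the nerve signal to contraction rose at 48 h. Of 10 measured genes of excitation-contraction coupling 5 rose, 0 fell and 5 did not pass (median 0.99), with 2 higher without 24 h replicate 3 and 3 without 48 h replicate 1. Atp2a1, the fast calcium pump of the sarcoplasmic reticulum, had 6809 and 4918 at 48 h, against 1782 and 1428 at 24 h (log2 change 1.77 ± 0.21, adjusted p = 7.99e-05). Cacng1, the gamma subunit of the muscle calcium channel, had 6847 and 6989 at 48 h, against 3919 and 3818 at 24 h (log2 change 0.82 ± 0.11, adjusted p = 0.000202). The 48 h arrays of both genes lay above both 24 h arrays, as in every probe set called higher. Ryr1, the calcium release channel, had 918 and 991 at 48 h, against 341 and 361 at 24 h (log2 change 1.16 ± 0.30, adjusted p = 0.0171), and its call was lost without any 1 of the 4 arrays (adjusted p = 0.0528 and 0.0754 without 48 h replicates 1 and 2, 0.0783 and 0.0668 without 24 h replicates 2 and 3). Of 11 genes of the acetylcholine receptor and the neuromuscular junction 4 rose, 0 fell and 7 did not pass, with 2 higher without 24 h replicate 3. Chrng, the fetal gamma subunit of the receptor, led with 7323 and 7614 at 48 h, against 2362 and 1695 at 24 h (log2 change 1.83 ± 0.23, adjusted p = 0.000163).

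The membrane of the fibre changed in its caveolins in opposite directions. Cav3, the muscle caveolin, had 1666 and 1663 on the 48 h arrays, against 254 and 246 on the 24 h arrays (log2 change 2.22 ± 0.13, adjusted p = 2.73e-07), a 6.66-fold higher intensity. Cav1, the caveolin of most other cells and of myoblasts, had 1576 and 1628 on the 48 h arrays, against 3999.7 and 3804 on the 24 h arrays (log2 change -1.22 ± 0.17, adjusted p = 0.000319), a 2.44-fold lower one. A dimmer probe set of Cav1 had 460 and 692 at 48 h, against 709 and 818 at 24 h, and did not pass (log2 change -0.35 ± 0.29, adjusted p = 0.448). A dimmer one of Cav3 passed as higher (adjusted p = 1.26e-07). Cav3 and Cav1 belong to a list of 17 genes of the dystrophin complex, costamere and caveola, in which 4 rose and 1 fell. Sgca, the alpha subunit of the sarcoglycan complex, had 1638 and 1019 at 48 h, against 105 and 187 at 24 h (log2 change 2.35 ± 0.24, adjusted p = 2.1e-05). Bin1, which shapes the T-tubule, had 19181 and 18492 at 48 h, against 12343 and 9993 at 24 h (log2 change 0.75 ± 0.12, adjusted p = 0.000865).

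Energy genes were called in both directions. Their counts are to be read beside 8.07% of all genes higher and 11.4% lower. Of 15 muscle energy enzymes 4 rose, 1 fell and 10 did not pass (median 0.28). Cox6a2, the heart and muscle form of a cytochrome oxidase subunit, had 12145 and 11238 on the 48 h arrays, against 1117 and 1119.7 on the 24 h arrays (log2 change 3.23 ± 0.09, adjusted p = 3.12e-10), the smallest adjusted p of the genes named here. Pygm, muscle glycogen phosphorylase, had 699 and 537 at 48 h, against 229 and 129 at 24 h (log2 change 1.26 ± 0.14, adjusted p = 5.75e-05). Ckb, the brain form of creatine kinase, fell: 1976 and 2253 at 48 h, against 5705 and 5158 at 24 h (log2 change -1.31 ± 0.13, adjusted p = 1.71e-05). Its muscle counterpart Ckm was dim at both times, with 346 and 468 at 48 h, against 292 and 326 at 24 h, and did not pass (log2 change 0.28 ± 0.18, adjusted p = 0.317). Mb, myoglobin, had 345 and 255 at 48 h, against 688 and 519 at 24 h and did not pass either (log2 change -0.76 ± 0.28, adjusted p = 0.0845). Of 40 genes of the respiratory chain and ATP synthase 1 rose and 1 fell (median 0.04). Under quantile normalization 5 were lower. Both calls changed with single arrays: none was higher without 24 h replicate 2, 24 h replicate 3 or 48 h replicate 1, 2 were without 48 h replicate 2, and none was lower without 24 h replicate 2. In the tricarboxylic acid cycle and its control 0 of 17 rose and 2 fell, namely Pdk4, a kinase that blocks pyruvate dehydrogenase (log2 change -0.85 ± 0.16, adjusted p = 0.00287), and Idh2, mitochondrial isocitrate dehydrogenase (log2 change -0.71 ± 0.14, adjusted p = 0.00414). Cpt1a, the liver form of the enzyme that brings fatty acids into mitochondria, fell (log2 change -1.09 ± 0.16, adjusted p = 0.000409), and Slc25a20, the carnitine carrier of the inner membrane, rose (log2 change 0.67 ± 0.12, adjusted p = 0.00262). Of the 18 genes of fatty acid oxidation and lipid handling 2 rose and 3 fell, with 1 higher without any 1 of the 4 arrays and 5 lower with no filter on dim probe sets.

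Among the regulators of the muscle programme Myod1 rose, Myf5 fell and Myog missed the threshold. Myod1, the determination factor, had 5611 and 4563 on the 48 h arrays, against 3051 and 3023 on the 24 h arrays (log2 change 0.71 ± 0.11, adjusted p = 0.00056). Myf5, the factor of proliferating myoblasts, fell to 931 and 1005 at 48 h, against 1753 and 2060.1 at 24 h (log2 change -0.88 ± 0.18, adjusted p = 0.00384). Myog, myogenin, had 18686 and 21516 on the 48 h arrays, against 7210.0 and 8627 on the 24 h arrays, and although the groups did not overlap and differed 2.54-fold, the adjusted p was 0.0507 (log2 change 1.33 ± 0.44). Its standard error comes from all 20 arrays. Mef2a and Mef2d, MADS-box partners of the myogenic factors, rose: Mef2a had 3197 and 2723 at 48 h, against 1399 and 1652 at 24 h (log2 change 0.90 ± 0.16, adjusted p = 0.00182), and Mef2d had 4113 and 4388 at 48 h, against 1690.0 and 2176 at 24 h (log2 change 1.09 ± 0.16, adjusted p = 0.000512). Mef2c had 542 and 568 at 48 h, against 211 and 363 at 24 h and did not pass (log2 change 0.73 ± 0.33, adjusted p = 0.151). Hmgb3, a chromatin protein of immature cells that the list of myogenic factors and cofactors includes, fell (log2 change -1.14 ± 0.12, adjusted p = 2.77e-05). In that list of 17 genes 4 rose and 2 fell. Myf6 was too dim to be tested, with 29.4 and 73.6 at 48 h, against 70.9 and 94.2 at 24 h.

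Inhibitors of myogenesis showed no common direction: 1 of 15 rose (6.67%) and 2 fell (13.3%), near the 8.07% and 11.4% of all genes. Without 24 h replicate 2 or 48 h replicate 1 the counts were 0 and 1, and without 48 h replicate 2 they were 2 and 0. The inhibitory helix-loop-helix genes were low by 24 h. Id2 had 133 and 65.8 at 48 h, against 327 and 104 at 24 h (log2 change -0.51 ± 0.25, adjusted p = 0.189), and passed as lower without 24 h replicate 3 (adjusted p = 0.0123); its intensity had averaged 4931 in growth medium. Id3 had 981 and 315 at 48 h, against 416 and 486 at 24 h (log2 change 0.28 ± 0.34, adjusted p = 0.633), against a mean of 5641 in growth medium, and passed as higher without 48 h replicate 2 (adjusted p = 0.0439). Id1 had 459 and 447 at 48 h, against 834 and 969 at 24 h (log2 change -0.81 ± 0.25, adjusted p = 0.0395), and its call was lost without any 1 of the 4 arrays (adjusted p = 0.105 and 0.126 without 48 h replicates 1 and 2, 0.0873 and 0.176 without 24 h replicates 2 and 3). Fst, follistatin, which binds myostatin, had 419 and 605 at 48 h, against 415 and 289 at 24 h and did not pass (log2 change 0.41 ± 0.19, adjusted p = 0.17).

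Genes that close the cell cycle were mixed. Cdkn1a, the p21 inhibitor of cyclin-dependent kinases, had 11742 and 11155 on the 48 h arrays, against 3489 and 3840.1 on the 24 h arrays, 3.12-fold higher and without overlap, but did not pass (log2 change 1.61 ± 0.54, adjusted p = 0.0565). A dimmer probe set of Cdkn1a had 9978 and 7915 at 48 h, against 4085 and 4028 at 24 h, and passed as higher (log2 change 1.11 ± 0.18, adjusted p = 0.00117). Gadd45a, a stress-induced gene of growth arrest, had 13071 and 15251 at 48 h, against 5627 and 5281 at 24 h (log2 change 1.35 ± 0.22, adjusted p = 0.000923). The cyclin genes of the growth phase differed in level: Ccnd1 had 642 and 288 at 48 h, against 1111 and 1334 at 24 h (log2 change -1.23 ± 0.23, adjusted p = 0.00264), and Ccnd3, which differentiating muscle keeps, had 3969 and 3064 at 48 h, against 2474 and 2329.7 at 24 h and did not pass (log2 change 0.51 ± 0.46, adjusted p = 0.491). E2f1, a transcription factor of S phase entry, fell to 93.0 and 118 at 48 h, against 533 and 507 at 24 h (log2 change -1.44 ± 0.28, adjusted p = 0.0036). Rb1 had 1102 and 669.7 at 48 h, against 633 and 673 at 24 h (log2 change 0.34 ± 0.20, adjusted p = 0.278) and Cdkn1c had 636 and 703 at 48 h, against 566 and 534 at 24 h (log2 change 0.23 ± 0.21, adjusted p = 0.508), and neither passed. Of 18 genes of cell cycle exit 1 rose and 4 fell, 2 of these without 48 h replicate 1.

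Division genes were lower at 48 h almost throughout. Of 39 measured genes of mitosis and cytokinesis 36 fell, 0 rose and 3 did not pass, with a median log2 change of -2.22. Cdk1, the kinase that drives entry into mitosis, had 37.8 and 119.6 on the 48 h arrays, against 4466 and 4011 on the 24 h arrays (log2 change -4.36 ± 0.17, adjusted p = 8.51e-09), the largest fall of the named genes. Anln, anillin of the cleavage furrow, had 274 and 251 on the 48 h arrays, against 3474 and 3789 on the 24 h arrays (log2 change -3.23 ± 0.14, adjusted p = 3.64e-08). Nusap1, which bundles spindle microtubules, had 137 and 153 at 48 h, against 2092 and 2116 at 24 h (log2 change -2.99 ± 0.16, adjusted p = 1.26e-07). On each 48 h array these genes were a small fraction of the lower 24 h array. Birc5, survivin, had 125 and 529.8 at 48 h, against 3341 and 3036 at 24 h (log2 change -2.99 ± 0.34, adjusted p = 5.75e-05). The condensin subunit Smc2 had 93.3 and 43.1 at 48 h, against 1521 and 1398 at 24 h (log2 change -2.97 ± 0.17, adjusted p = 1.43e-07). Prc1, which crosslinks microtubules of the spindle midzone, had 209 and 123 at 48 h, against 1956 and 1870.2 at 24 h (log2 change -2.77 ± 0.17, adjusted p = 2.37e-07). The 48 h arrays of Birc5 differed from each other but stayed far below the 24 h values. Kif20a, a kinesin of cytokinesis, had 274 and 599 at 48 h, against 3450.0 and 3617 at 24 h (log2 change -2.74 ± 0.23, adjusted p = 4.74e-06). Mki67, the Ki-67 protein of dividing cells, had 152 and 139 at 48 h, against 1622 and 1608 at 24 h (log2 change -2.63 ± 0.14, adjusted p = 1.28e-07).

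Other members of the list fell but stayed measurable at 48 h. Stmn1, stathmin, which destabilises microtubules, still had 1666 and 2012 on the 48 h arrays, against 10344 and 9261 on the 24 h arrays (log2 change -2.33 ± 0.12, adjusted p = 1.26e-07), 5.33-fold lower. Cks2, a partner of Cdk1, had 718 and 737 at 48 h, against 4382 and 4259 at 24 h (log2 change -2.37 ± 0.13, adjusted p = 1.26e-07). Mad2l1, of the spindle checkpoint, had 331 and 393 at 48 h, against 2434 and 2196 at 24 h (log2 change -2.30 ± 0.12, adjusted p = 1.26e-07). The levels of these 3 genes at 48 h remained above the pseudocount. Several others were at or below 0 on both 48 h arrays, so that a fold cannot be stated and their p may be an understatement. They were Gtse1 (921 and 817 at 24 h, adjusted p = 1.8e-05), the condensin gene Ncaph (634 and 863, 4.69e-06), Dlgap5 of the spindle (667 and 587, 8.56e-08), Racgap1 (1018 and 310.3, 0.00901) and the kinase gene Aurkb (906 and 386, 0.0122). The calls of Racgap1 and Aurkb rested on single arrays: without 24 h replicate 2 the adjusted p was 0.0919 for Racgap1 and 0.103 for Aurkb, and without 48 h replicate 2 it was 0.0515 for Aurkb. Over all tested probe sets 41 that fell were at or below 0 on both 48 h arrays and 4 that rose were so on both 24 h arrays.

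DNA replication genes fell with them, 26 of 36 lower and 0 higher (median -1.11), with 1 higher without 48 h replicate 2. Top2a, the topoisomerase that untangles replicated DNA, had 99.8 and 231 at 48 h, against 1744 and 1793 at 24 h (log2 change -2.69 ± 0.20, adjusted p = 1.97e-06). Rrm1, the large subunit of ribonucleotide reductase, had -7.83 and 198 at 48 h, against 1752 and 1365 at 24 h (log2 change -2.97 ± 0.31, adjusted p = 3.21e-05). Prim1, the small primase subunit, had 12.3 and -93.4 at 48 h, against 900.0 and 748 at 24 h (log2 change -2.74 ± 0.24, adjusted p = 6.33e-06). These 3 genes were near the background on the 48 h arrays. Pcna, the sliding clamp of the polymerase, fell less and stayed well measured, with 1831 and 1731 at 48 h, against 5079 and 4841 at 24 h (log2 change -1.41 ± 0.14, adjusted p = 2.13e-05). Uhrf1, which recruits the DNA methyltransferase to new strands, had 312 and 364 at 48 h, against 1662 and 1697 at 24 h (log2 change -1.94 ± 0.19, adjusted p = 1.44e-05). Dnmt1, that methyltransferase, was below 0 on both 48 h arrays and had 837 and 687 at 24 h (adjusted p = 2.23e-06).

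The promoters of the falling genes are shown because a pair of short motifs, the cell cycle homology region (CHR, TTTGAA) and the CCAAT box (CCAAT), recur in genes of mitosis. Both strands were searched, so TTCAAA and ATTGG are the same motifs read on the other strand, and each is in capitals. The Cdk1 promoter lies at chr10:69352863-69353162 and the Anln promoter at chr9:22389157-22389456, both on the minus strand of GRCm38.p6 and printed in the direction of transcription, from RefSeq.
Cdk1: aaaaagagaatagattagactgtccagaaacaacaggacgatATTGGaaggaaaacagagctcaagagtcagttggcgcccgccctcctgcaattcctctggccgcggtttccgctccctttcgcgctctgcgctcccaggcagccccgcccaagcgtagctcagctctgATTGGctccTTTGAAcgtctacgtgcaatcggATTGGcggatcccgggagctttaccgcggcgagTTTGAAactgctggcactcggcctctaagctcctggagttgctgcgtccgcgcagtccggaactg
Anln: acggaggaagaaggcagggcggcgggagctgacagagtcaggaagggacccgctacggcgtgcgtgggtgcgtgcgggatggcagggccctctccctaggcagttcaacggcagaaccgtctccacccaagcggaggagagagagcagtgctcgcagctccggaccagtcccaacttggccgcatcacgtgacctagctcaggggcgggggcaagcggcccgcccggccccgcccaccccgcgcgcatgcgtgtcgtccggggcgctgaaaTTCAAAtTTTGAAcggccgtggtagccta
Cdk1 held 2 CHR and 3 CCAAT matches, Anln held 2 CHR matches, and the window of Nusap1 held none. Of the 28 falling mitosis genes with a promoter, 19 (67.9%) held TTTGAA, against 12.3% of tested genes and 18.1% of all promoters, and 20 (71.4%) held CCAAT, against 38.8% and 37.9%. The E2F site, searched as TTTCCCGC or TTTGGCGC, was in 8 of the 23 falling replication genes with a promoter (34.8%), in none of the 28 mitosis genes, and in 3.48% of tested genes. TTTGAA was in 4 of the 23 replication genes (17.4%). CCAAT was in 15 of these 23 (65.2%), so it was not particular to the mitosis genes.

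**Figure D3:**
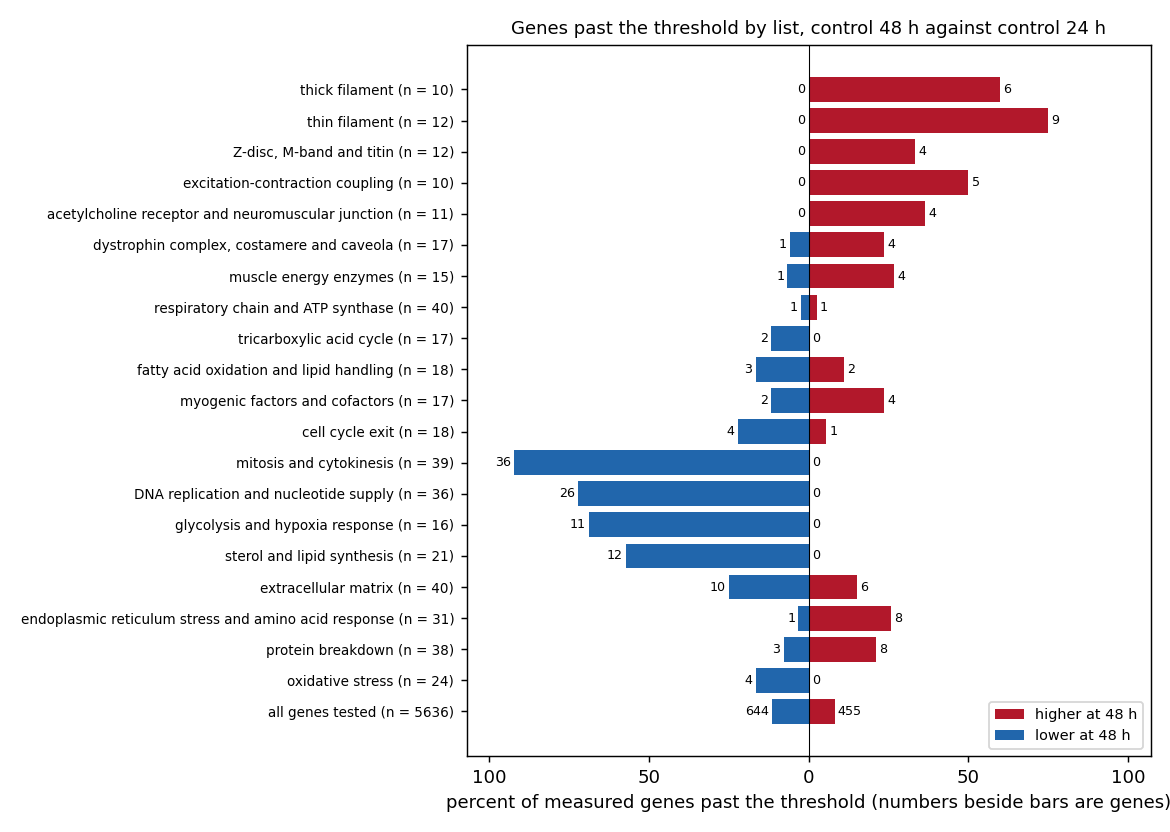
Percent of the measured genes of 20 lists, and of all 5636 genes (bottom), that were higher (red, to the right) or lower (blue, to the left) at 48 h than at 24 h, with the number of genes beside each bar. The bars of mitosis (36 of 39 lower), replication (26 of 36 lower) and the filaments (6 of 10 and 9 of 12 higher) reach far beyond those of all genes (11.4% lower and 8.07% higher). The lists were chosen with earlier results of these data known, so this excess is a description and not a test.

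Glycolytic and hypoxia-responsive genes fell as a group. Of 16 measured 11 were lower at 48 h and 0 higher (median -0.77). Ldha, the lactate dehydrogenase of anaerobic glycolysis, had 8954 and 9705 on the 48 h arrays, against 24862 and 27048 on the 24 h arrays (log2 change -1.46 ± 0.12, adjusted p = 3.19e-06), 2.78-fold lower. Pgam1, phosphoglycerate mutase, had 4327 and 4920.4 at 48 h, against 12757 and 13824 at 24 h (log2 change -1.50 ± 0.11, adjusted p = 1.84e-06). Pfkl, the liver form of phosphofructokinase, had 1659 and 1843 at 48 h, against 5837 and 7549.8 at 24 h (log2 change -1.85 ± 0.17, adjusted p = 8.07e-06). In each of these abundant genes the higher 48 h array lay below the lower 24 h array, as in every probe set called lower. Pdk1, which like Pdk4 blocks pyruvate dehydrogenase, had 635 and 572 at 48 h, against 2265 and 2742 at 24 h (log2 change -1.83 ± 0.14, adjusted p = 2.23e-06). Bnip3, a mitophagy receptor induced by low oxygen, had 443 and 250.1 at 48 h, against 1406 and 1561 at 24 h (log2 change -1.77 ± 0.22, adjusted p = 0.000127). Fam162a, another hypoxia-induced gene, had 1607 and 2303 at 48 h, against 6329 and 6728 at 24 h (log2 change -1.69 ± 0.17, adjusted p = 2.27e-05). The list had gained before 24 h: over the step of 24 h against 12 h, which shares the 24 h arrays, 10 of the 16 rose and 0 fell (median 0.89). Pfkl averaged 3301, 2215, 2441, 6693 and 1751 at 0, 4, 12, 24 and 48 h, and Bnip3 599, 393, 365, 1484 and 347. Ldha was already at 22321 in growth medium.

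Txnip, which binds thioredoxin and limits glucose uptake, moved against them. It had 3816 and 4261 on the 48 h arrays, against 415 and 441 on the 24 h arrays (log2 change 2.88 ± 0.21, adjusted p = 1.63e-06), 9.43-fold higher. A dimmer probe set of Txnip had 709 and 526 at 48 h, against 868 and 604 at 24 h, and did not pass (log2 change -0.20 ± 0.25, adjusted p = 0.636), so its probe sets disagree.

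Genes of sterol and lipid synthesis were lower as well, with 12 of 21 genes lower and 0 higher (median -0.88). The falls covered the path to cholesterol from its isoprenoid part to the ring. Idi1, which isomerises isopentenyl diphosphate, had 1220.0 and 1347 at 48 h, against 3648 and 3638 at 24 h (log2 change -1.41 ± 0.13, adjusted p = 1.13e-05). Fdps, farnesyl diphosphate synthase, had 7144 and 8077 at 48 h, against 15417 and 18073 at 24 h (log2 change -1.12 ± 0.13, adjusted p = 8.23e-05). Lss, which closes the sterol ring, had 158 and 93.0 at 48 h, against 931 and 1084 at 24 h (log2 change -2.13 ± 0.21, adjusted p = 1.92e-05). Cyp51, which demethylates lanosterol, had 824 and 642 at 48 h, against 2142 and 2268 at 24 h (log2 change -1.44 ± 0.14, adjusted p = 1.88e-05). Nsdhl, of the following steps, had 2127 and 2274 at 48 h, against 5225 and 5704 at 24 h (log2 change -1.26 ± 0.13, adjusted p = 2.7e-05). Acly, which supplies acetyl-CoA from citrate, had 1516 and 1858 at 48 h, against 3949 and 3525 at 24 h (log2 change -1.09 ± 0.11, adjusted p = 2.45e-05). The metallothioneins, which bind zinc and copper, were also lower: Mt2 had 6298 and 6695 at 48 h, against 19737 and 20173 at 24 h (log2 change -1.60 ± 0.17, adjusted p = 4.21e-05), and Mt1 6647 and 7684 at 48 h, against 16823 and 15309 at 24 h (log2 change -1.15 ± 0.23, adjusted p = 0.00397).

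Secreted and matrix genes went in both directions. Over all genes 8.07% were higher and 11.4% lower. Of 40 extracellular matrix genes 6 rose and 10 fell (median 0.01), 6 lower without 48 h replicate 1. The small proteoglycans rose, Dcn (decorin) to 2005 and 2249 at 48 h, against 549 and 731 at 24 h (log2 change 1.55 ± 0.20, adjusted p = 0.000197) and Ogn (osteoglycin) to 10739 and 9717 at 48 h, against 3823 and 4106 at 24 h (log2 change 1.34 ± 0.23, adjusted p = 0.00176). Vcan, the large proteoglycan versican, had 5559 and 5773 at 48 h, against 1616 and 1747 at 24 h (log2 change 1.67 ± 0.17, adjusted p = 2.49e-05). Of the inhibitors of metalloproteinases, Timp2 (log2 change 0.71, adjusted p = 0.00689) and Timp3 (0.99, 0.0118) rose, while Timp1 fell. The Timp3 call was lost with only the 10 untreated arrays in the fit. Genes of collagen and the basement membrane were called in either direction. Lox, which crosslinks collagen, had 478 and 413 at 48 h, against 1791 and 2151 at 24 h (log2 change -1.85 ± 0.31, adjusted p = 0.0012). P4ha2, a collagen prolyl hydroxylase subunit, had 1819 and 1450.1 at 48 h, against 3566 and 3427 at 24 h (log2 change -1.04 ± 0.13, adjusted p = 0.000129). Col6a3, a collagen VI chain, had 1611 and 1259 at 48 h, against 3969 and 4192 at 24 h (log2 change -1.43 ± 0.20, adjusted p = 0.000362). Nid2, nidogen 2, had 871 and 789.8 at 48 h, against 1886 and 2227 at 24 h (log2 change -1.18 ± 0.13, adjusted p = 5.75e-05), Mgp, matrix Gla protein, 1254 and 1668 at 48 h, against 4599 and 4955 at 24 h (log2 change -1.63 ± 0.21, adjusted p = 0.000159), and Timp1, an inhibitor of metalloproteinases, 4965 and 5447 at 48 h, against 9496 and 9378 at 24 h (log2 change -0.84 ± 0.16, adjusted p = 0.00342). Among those that rose were the laminin chains Lama2 (log2 change 0.58 ± 0.14, adjusted p = 0.0102) and Lama5 (2.21-fold, adjusted p = 0.0462) and the collagen VI chain Col6a2 (log2 change 1.09 ± 0.30, adjusted p = 0.0256), whose calls rested on single arrays. Without 24 h replicates 2 and 3 in turn the adjusted p was 0.0533 and 0.0493 for Lama2, 0.172 and 0.116 for Lama5, and 0.0311 and 0.179 for Col6a2. Without 48 h replicates 1 and 2 in turn it was 0.00544 and 0.0904 for Lama2, 0.105 and 0.153 for Lama5, and 0.072 and 0.0992 for Col6a2.

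Igf2, the insulin-like growth factor that differentiating myoblasts secrete and need, was among the highest genes at 48 h. It had 15036 and 17199 on the 48 h arrays, against 3877 and 2176 on the 24 h arrays (log2 change 2.41 ± 0.20, adjusted p = 5.18e-06), and the 24 h arrays differed from each other more than the 48 h arrays in relative terms. Igfbp2, a binding protein of these factors, had 2051 and 1624 at 48 h, against 4417 and 4504 at 24 h (log2 change -1.23 ± 0.12, adjusted p = 1.5e-05). Of 11 genes of the axis 2 rose and 2 fell; without any 1 of the 4 arrays 1 rose, and 1 fell without 24 h replicate 2, 24 h replicate 3 or 48 h replicate 1. In the TGF-beta, activin and BMP family 2 of 27 rose (7.41%) and 4 fell (14.8%), near the 8.07% and 11.4% of all genes. The higher calls were 1 or none without any 1 array, and the lower ones 2 without 48 h replicate 1 or either 24 h array. Fstl1, a secreted follistatin-like protein, fell (log2 change -0.89 ± 0.14, adjusted p = 0.000907), as did Acvr2b, an activin and myostatin receptor, with -25.0 and 112 at 48 h, against 392 and 308 at 24 h (log2 change -1.39 ± 0.25, adjusted p = 0.0021).

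Adhesion genes of fusion had 4 higher and 2 lower of 19. Cd82, a tetraspanin, had 15864 and 13743 at 48 h, against 7356 and 8211 at 24 h (log2 change 0.91 ± 0.13, adjusted p = 0.000342). Ncam1, an adhesion molecule that marks myotubes as well as neurons, had 6922 and 6840.2 at 48 h, against 3785 and 4193 at 24 h (log2 change 0.77 ± 0.13, adjusted p = 0.00113). Adam19, a meltrin, had 1795 and 1844 at 48 h, against 727 and 863 at 24 h (log2 change 1.07 ± 0.18, adjusted p = 0.00124). Itgav, an integrin subunit, was lower (log2 change -0.54 ± 0.11, adjusted p = 0.00437), and the lower count was 1 without 24 h replicate 3 or 48 h replicate 2. Dimmer probe sets of Cd82, Ncam1 and Itgav had a change of the other sign that did not pass.

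Stress and turnover genes were called in both directions. Of 31 genes that answer stress of the endoplasmic reticulum or lack of amino acids, 8 rose and 1 fell, with 3 higher without 24 h replicate 2 and 5 without any other of the 4 arrays. Hspa5, the main chaperone of the reticulum, had 13214 and 15724 at 48 h, against 8223 and 7144 at 24 h (log2 change 0.90 ± 0.16, adjusted p = 0.0022). Ppp1r15a, which restarts translation after stress, had 2238 and 2364 at 48 h, against 887 and 769.7 at 24 h (log2 change 1.34 ± 0.17, adjusted p = 0.000133). Psat1, of serine synthesis, fell (log2 change -0.77 ± 0.10, adjusted p = 0.000263). In protein breakdown 8 of 38 genes rose and 3 fell, 5 higher without 24 h replicate 2 or 48 h replicate 2. The autophagy genes Map1lc3a (log2 change 1.33 ± 0.26, adjusted p = 0.00326) and Gabarapl1 (log2 change 0.47 ± 0.10, adjusted p = 0.00507) and the lysosomal genes Lamp2 (log2 change 0.69 ± 0.11, adjusted p = 0.00121) and Ctsl (log2 change 0.67 ± 0.13, adjusted p = 0.00262) were among them. Of the small heat shock genes Hspb2, found in muscle, had 4729.9 and 6127 at 48 h, against 2884 and 2179 at 24 h (log2 change 1.06 ± 0.19, adjusted p = 0.00188), while the cytosolic chaperone Hsp90aa1 fell (log2 change -0.70 ± 0.12, adjusted p = 0.00139). Of 11 p53 targets 3 rose and 1 fell. The risers included Plk2 (log2 change 1.12 ± 0.13, adjusted p = 7.3e-05) and Zmat3 (log2 change 1.04 ± 0.15, adjusted p = 0.000347). Sesn1, a stress-induced sestrin, fell (log2 change -0.53 ± 0.16, adjusted p = 0.032), a call lost without 24 h replicate 2 (adjusted p = 0.121), 24 h replicate 3 (0.104) or 48 h replicate 1 (0.222).

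Other genes of large change belonged to none of these groups. Avil, advillin, an actin-binding protein of the gelsolin family, had 1763 and 1935 on the 48 h arrays, against 178 and -77.4 on the 24 h arrays (log2 change 3.25 ± 0.36, adjusted p = 5.02e-05). Chchd10, a mitochondrial protein of the inner membrane organisation, had 14094 and 16726 on the 48 h arrays, against 2759 and 2346 on the 24 h arrays (log2 change 2.53 ± 0.51, adjusted p = 0.00417). Enah, an actin regulator of the Ena/VASP family, had 1607 and 1116 at 48 h, against 48.8 and 159 at 24 h (log2 change 2.65 ± 0.35, adjusted p = 0.000231). Avil and Enah were near the background at 24 h, while Chchd10 was well above it. Prkd2, a kinase of the protein kinase D family, had 1176 and 1519 at 48 h, against -70.6 and 188 at 24 h (log2 change 2.80 ± 0.67, adjusted p = 0.0116). Its call was lost without 24 h replicate 2 (adjusted p = 0.102) or 48 h replicate 2 (0.0618), and its other probe set had the other sign without a call. Sat1, which starts the breakdown of polyamines, had 14675 and 13572 at 48 h, against 3875 and 5094 at 24 h (log2 change 1.64 ± 0.15, adjusted p = 1.19e-05). Grhpr, glyoxylate reductase, had 914 and 1039 at 48 h, against 2217 and 2577 at 24 h (log2 change -1.18 ± 0.11, adjusted p = 1.07e-05). The 2 genes whose probe sets passed in both directions were Arl14ep and Mkrn1, named here after their values were seen, and no direction is given for them.

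Marker lists of other cell types are given by their summed intensity and their calls, beside 8.07% higher and 11.4% lower over all genes. The skeletal muscle markers Myod1, Myog, Des, Acta1, Chrna1, Tnnc1 and Myl1 were at 1869 or more on every one of the 4 arrays, while Ckm was at 292 to 468. Smooth muscle markers summed to 22560 and 26441 at 48 h, against 23609 and 21248 at 24 h, and 1 of 6 tested genes changed. That gene was Tagln, which myoblasts also express, with 511 and 844 at 48 h, against 1471 and 1435 at 24 h (log2 change -0.99 ± 0.20, adjusted p = 0.00431). Of the 9 smooth muscle markers on the array, Myh11, the defining myosin, was at 18.03 to 131 and 1 was at or below 0 on all 4 arrays. The actin genes Acta2 (7649 to 12791) and Actg2 (7094 to 8479) made up most of the sum and did not pass. Adipocyte markers summed to 3442 and 2950.3 at 48 h, against 2579 and 2583 at 24 h. Of the 10 on the array 2 were at or below 0 on all 4 arrays, Fabp4 and Adipoq stayed between 68.0 and 166, and Lpl alone was called. Lep (956 to 1093), Cebpa (829 to 927) and Pnpla2 (269 to 665) were brighter, made up most of the sum and did not pass. Lpl had 370.3 and 374 at 48 h, against 23.8 and 48.8 at 24 h (log2 change 1.55 ± 0.50, adjusted p = 0.0463), and the call was lost without any 1 of the 4 arrays (adjusted p = 0.123 and 0.135 without 48 h replicates 1 and 2, 0.168 and 0.12 without 24 h replicates 2 and 3). The neuron list, with 2 of 5 tested genes lower, had sums of 7591 and 8185 at 48 h, against 14204 and 13621 at 24 h, and its calls were the tubulin gene Tubb3 (log2 change -0.87 ± 0.16, adjusted p = 0.00289) and the stathmin gene Stmn2 (log2 change -0.73 ± 0.12, adjusted p = 0.000906), while 4 of its 11 genes were at or below 0 on all 4 arrays. Bone and cartilage markers (sums of 2649 and 2131 at 48 h, against 2699 and 2297 at 24 h), leukocyte markers (2842 and 2336, against 3012 and 2161) and endothelial markers (2167 and 1676, against 1452 and 1582) had no call in limma among 6, 4 and 2 tested genes, with 1 leukocyte gene higher without 24 h replicate 3. Reserve cell genes summed to 16263 and 14941 at 48 h, against 13805 and 15143 at 24 h, with 1 of 11 higher and 2 lower (1 lower without 24 h replicate 3 or 48 h replicate 2). The reserve cell gene called higher was Ncam1, which also marks myotubes. It made up 6922 and 6840 of the sums at 48 h, against 3785 and 4193 at 24 h. The genes called lower were Myf5 and Met, so these sums do not give the direction of the other reserve cell genes. The part of these other cell types and of reserve cells in the results was not tested.

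Several further lists held small counts, to be read beside 8.07% of all genes higher and 11.4% lower. Ribosome biogenesis had 4 higher and 1 lower of 27, heat shock chaperones 3 higher and 1 lower of 22, oxidative stress 0 and 4 of 24, immediate early genes 0 and 1 of 19, the interferon response and antigen presentation 2 and 0 of 12, Notch and Wnt signals 1 and 2 of 15, and chemokines and cytokines 1 and 1 of 6. These small counts rested on single arrays. For ribosome biogenesis 2 were higher without 24 h replicate 2 or 48 h replicate 2 and none lower without any 1 array, and for heat shock chaperones 1 was higher without any 1 array and 2 lower without 48 h replicate 2. For oxidative stress 2 were lower without 24 h replicate 2 or 48 h replicate 1, 5 without 48 h replicate 2 and 7 under quantile normalization, and for immediate early genes none was lower without either 24 h array and 2 without either 48 h array. For the interferon response 1 was higher without 48 h replicate 1 or either 24 h array, for Notch and Wnt none was higher without 24 h replicate 3 or 48 h replicate 2 and 1 lower without these or 24 h replicate 2, and for chemokines none was lower without any 1 array.

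Set beside the earlier steps of the untreated cells, the step of 48 h against 24 h held the most calls, and it also spanned the longest time. The steps differ in length, so their counts and medians are not values per equal time. At 4 h against 0 h 153 probe sets (2.05%) were called, 1.09% of all higher and 0.966% lower. At 12 h against 4 h it was 217 (2.91%), with 1.25% higher and 1.66% lower. At 24 h against 12 h 1048 (14.1%) were called, with 7.61% higher and 6.45% lower, against 1405 (18.9%) at 48 h against 24 h. Neighbouring steps share the arrays of the time between them, so each step's own values are given side by side. Thick filament genes rose in 5 of 10 cases at 24 h against 12 h (median 1.28) and in 6 of 10 at 48 h against 24 h (median 1.85). For thin filament genes the counts were 9 of 12 (median 1.47) and 9 of 12 (median 0.92). Mitosis genes fell in 16 of 39 cases in the earlier step (median -0.52) and in 36 of 39 in the later one (median -2.22). Cdk1 averaged 5755, 5231, 8641, 4239 and 78.7 at 0, 4, 12, 24 and 48 h. Anln averaged 5794, 5684, 5525, 3632 and 263 at the same times. Both were thus within 2-fold of their growth medium level at 24 h and far below it at 48 h. Myog, in contrast, averaged 71.2, 526, 2208, 7919 and 20101, and Myod1 1871, 1462, 1878, 3037 and 5087. Cox6a2 averaged -104, -490.0, -187, 1118 and 11691, so that it was listed below 0 until 12 h.

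**Figure D4:**
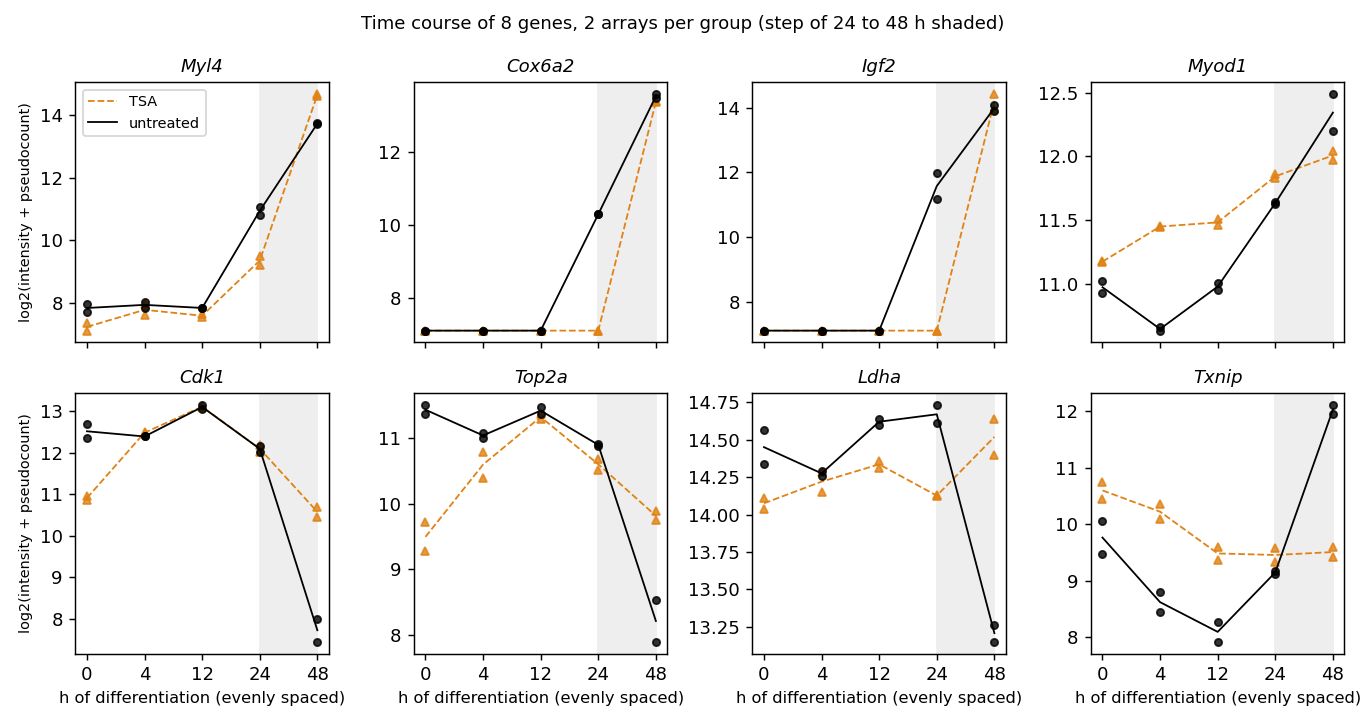
Intensity of 8 genes at 0, 4, 12, 24 and 48 h as log2(intensity + 137.7), TSA-treated cells as orange triangles with a dashed line and untreated cells as black circles with a solid line; points are arrays (n = 2 a group), lines join the means, and the step of 24 to 48 h is shaded. Cdk1 and Top2a stay high until 24 h in untreated cells and drop at 48 h, while the TSA-treated cells end higher; Cox6a2 and Igf2 lie at the floor until 12 h in untreated cells and until 24 h with TSA.

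Whether TSA changed the step was tested as the difference of the TSA step (48 h minus 24 h) and the untreated step, which share no array. In TSA-treated cells 1256 probe sets (16.9%) changed between the times, 545 higher (7.31%) and 711 lower (9.54%). The difference passed for 586 probe sets (7.86%), with 351 more positive (4.71%) and 235 more negative (3.15%) in TSA-treated cells; 95 passed with only the 8 arrays of these groups in the fit. Of the 586 probe sets that rose in untreated cells 194 also rose with TSA (33.1% of these and 35.6% of the 545 that rose with TSA), and 27 fell. Of the 819 that fell 326 also fell with TSA (39.8% of these and 45.9% of the 711), and 37 rose.

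Thick and thin filament genes and muscle energy enzymes gained more over the step with TSA. The difference was positive for 6 of 10 thick filament and 8 of 12 thin filament genes, and negative for 0 and 1. The negative call of the thin filament list held only without TSA 48 h replicate 2 or control 48 h replicate 1. Among muscle energy enzymes it was positive for 10 of 15, with medians of 1.88 in the TSA step and 0.28 in the untreated step. In other muscle lists the difference was positive for 2 of 12 Z-disc, M-band and titin genes, 2 of 11 junction genes and 3 of 17 genes of the dystrophin complex (1 without TSA 24 h replicate 2, TSA 48 h replicate 1, control 24 h replicate 3 or control 48 h replicate 2), and negative for none of these. For excitation-contraction coupling 5 of 10 were positive, 3 without control 48 h replicate 1 and 2 without any other array but control 24 h replicate 3. Of 17 myogenic factors 0 were positive and 1 negative, the negative call holding only without TSA 48 h replicate 1 or control 48 h replicate 2. Cox6a2 had 10349 and 10563 at 48 h with TSA, against -177 and -384 at 24 h with TSA, and the difference of steps was 3.03 ± 0.12 (adjusted p = 2.44e-08). Myl4 had 25982 and 25169 at 48 h with TSA, against 590.2 and 446 at 24 h with TSA (difference 2.51 ± 0.23, adjusted p = 2.75e-05). Igf2 had 21671 and 15889 at 48 h with TSA, against -25.7 and -231 at 24 h with TSA (difference 4.67 ± 0.29, adjusted p = 1.09e-06). For each of these 3 genes both TSA arrays of 24 h lay below both untreated arrays of 24 h. At 48 h both TSA arrays of Cox6a2 also lay below both untreated arrays, those of Igf2 overlapped them, and those of Myl4 lay above them. A larger step is thus not always a higher level at 48 h. Ckb, which fell in untreated cells, rose with TSA: it had 22364 and 18448 at 48 h with TSA, against 5321 and 5481 at 24 h with TSA (log2 change 1.88 ± 0.13, adjusted p = 7.52e-07; difference 3.19 ± 0.18, adjusted p = 5.27e-07). Mb had 7413 and 8048 at 48 h with TSA, against -86.3 and 27.4 at 24 h with TSA (difference 6.46 ± 0.40, adjusted p = 1.09e-06). Fst had 13962 and 14450.1 at 48 h with TSA, against 504 and 548 at 24 h with TSA (difference 4.03 ± 0.27, adjusted p = 2.42e-06). Neither Mb nor Fst passed in untreated cells. Myh7, below 0 at 24 h in both treatments, reached 5987 on average with TSA and 530.3 without (difference 3.19 ± 0.15, adjusted p = 6.78e-08).

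Division genes fell less over the step with TSA. The difference was positive for 20 of 39 mitosis genes and negative for 0, with medians of -0.99 in the TSA step and -2.22 in the untreated step. Cdk1 had 1270.5 and 1521 at 48 h with TSA, against 4495 and 3999 at 24 h with TSA (log2 change -1.52 ± 0.17, adjusted p = 6.22e-05; difference 2.84 ± 0.24, adjusted p = 1.41e-05). Anln had 1477 and 1719.8 at 48 h with TSA, against 3177 and 2924 at 24 h with TSA (log2 change -0.88 ± 0.14, adjusted p = 0.00116; difference 2.35 ± 0.21, adjusted p = 1.95e-05). At 24 h the arrays of both treatments were alike in level for Cdk1, and at 48 h both TSA arrays were above both untreated arrays. For replication genes the difference was positive for 6 of 36 and negative for 1, 3 positive without TSA 24 h replicate 3 or TSA 48 h replicate 2, and none negative without TSA 48 h replicate 1 or any 24 h array of either treatment.

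None of the 16 glycolytic genes fell over the step with TSA. The difference was positive for 11 of 16 genes and negative for 0, and 8 rose in the TSA step (median 0.45). Pdk1 had 1585 and 1397 at 48 h with TSA, against 766 and 575 at 24 h with TSA (log2 change 1.02 ± 0.14, adjusted p = 0.000314; difference 2.85 ± 0.20, adjusted p = 3.11e-06). Ldha had 25339.8 and 21493 at 48 h with TSA, against 17734 and 17763 at 24 h with TSA (log2 change 0.39 ± 0.12, adjusted p = 0.0366; difference 1.85 ± 0.17, adjusted p = 2.33e-05). Both therefore moved in opposite directions with and without TSA. Grhpr (difference 2.24 ± 0.15, adjusted p = 2.98e-06) and Fam162a (2.32 ± 0.24, 9.07e-05) did the same. Sterol synthesis genes differed in 11 of 21 with a positive and 1 with a negative difference. The positive count was 7 without TSA 24 h replicate 2, 6 without TSA 24 h replicate 3, 5 without TSA 48 h replicate 1 and 7 without control 24 h replicate 3, and the negative call held only without TSA 24 h replicate 3 or TSA 48 h replicate 1. Lss changed by -0.36 in the TSA step (difference 1.77 ± 0.30, adjusted p = 0.00305).

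Txnip, Sat1, Vcan and Ets2 rose in untreated cells and had a more negative step with TSA. Txnip had 544 and 636 at 48 h with TSA, against 508 and 622 at 24 h with TSA (difference -2.83 ± 0.30, adjusted p = 9.07e-05). Sat1 had 2733 and 3554 at 48 h with TSA, against 4684 and 5041 at 24 h with TSA (log2 change -0.62 ± 0.15, adjusted p = 0.0143; difference -2.26 ± 0.22, adjusted p = 4.17e-05). Vcan had 1405 and 1091 at 48 h with TSA, against 1679 and 2091 at 24 h with TSA (log2 change -0.55 ± 0.17, adjusted p = 0.0459; difference -2.22 ± 0.24, adjusted p = 0.000132). All 3 stood lower at 48 h with TSA than in untreated cells. Ets2, a transcription factor, had 682 and 665 at 48 h with TSA, against 2189 and 2287 at 24 h with TSA, and in untreated cells it changed by 0.73 ± 0.16 (difference -2.28 ± 0.22, adjusted p = 4.17e-05); the rise in untreated cells did not pass without 24 h replicate 2 (adjusted p = 0.0629).

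**Figure D5:**
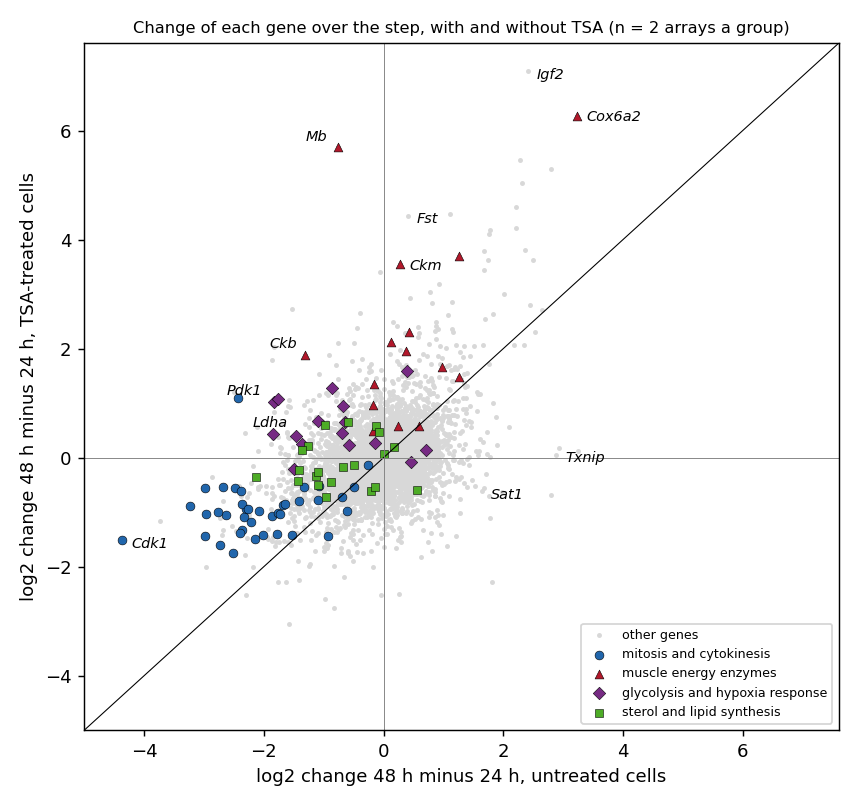
Log2 change of each tested gene, 48 h minus 24 h, in TSA-treated cells (y axis) against untreated cells (x axis), with the line of equal change (n = 2 arrays a group). Ldha, Pdk1 and Ckb lie left of 0 and above it, most mitosis genes lie above the line in the lower left, and Txnip and Sat1 lie far to the right, near or below 0 on the y axis.

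Vector cells of the other arm were sampled at 36 h and 12 h, so their step covers other times and their values are only set beside those above. Their log2 changes were taken with a pseudocount of 8.82, against 137.7 in the TSA arm. The sizes of change are therefore not comparable between the arms, above all for genes near the floor. In that step 2389 of 7453 probe sets (32.1%) passed, 12.4% higher and 19.7% lower. Of the 558 probe sets higher at 48 h that were tested in both arms 227 were higher at 36 h in vector cells (40.7% of these and 27.3% of the 833 that rose there), and 47 were lower. Of the 786 lower ones 473 were lower in vector cells (60.2% of these and 34.4% of the 1374 that fell there), and 28 were higher. Mitosis genes fell in 38 of 39 cases there and thick filament genes rose in 8 of 9. Cox6a2 changed by 4.88 ± 0.31 (adjusted p = 3.33e-07), Myl4 by 5.02 ± 0.15 (1.7e-09) and Cdk1 by -1.55 ± 0.16 (1.44e-05). Glycolytic genes had 4 higher and 2 lower of 16, with Ldha at 0.03 ± 0.10 (adjusted p = 0.878) and Pdk1 at -0.21 ± 0.18 (0.402). Sterol genes had 0 higher and 17 lower of 21. Ckb rose in vector cells by 1.21 ± 0.12 (adjusted p = 1.25e-05), against a fall in untreated cells of the TSA arm.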

How the data were processed

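The series holds 32 Affymetrix arrays of C2C12 RNA, whose deposited values are linear intensities, 1 for each probe set and array. MAS5, with no version, was used for the Sir2 arm per the submitters' processing notes. For the TSA arm no tool is given in the sources used here; its values go below 0, and its 20 arrays have nearly equal trimmed means. Groups came from the titles.

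After 66 control probe sets were left out, 12422 of 12488 remained. The platform annotation gave 10833 of them 1 gene symbol, 396 several and 1193 none; 10817 symbols were updated or matched through Entrez, for 8251 genes. Negative values were set to 0, a pseudocount was added (the 40th percentile, 137.7, in the TSA arm; the 20th, 8.82, in the Sir2 arm) and log2 was taken. Tested probe sets had a mean intensity no lower than the 40th percentile of means (144.9 in the TSA arm, 31.1 in the Sir2 arm): 7453 an arm, 6633 shared. limma 3.58.1 (R 4.3.3, lmFit and eBayes) fitted every group of an arm, with 10 and 8 residual degrees of freedom (prior 2.45 and 3.93), and Benjamini-Hochberg adjustment ran within each comparison. An exact permutation test of 2 arrays against 2 cannot go below p = 0.333, and the number of arrays limits precision. Each gene stands for its brightest probe set; 897 genes had several tested, of which 2 had calls both ways.

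The 38 gene lists held 940 genes (787 on the array, 643 tested). Members and lists were chosen with earlier results of these data known. The naming rule took the 12 largest changes per direction without overlap, up to 6 per direction with a group at or below 0 on both arrays, a set list of muscle and cycle regulators, up to 6 per list and direction by smallest p, 6 per direction from the difference of steps, and up to 6 that moved oppositely elsewhere; some are not printed. Promoters (300 bases, RefSeq, GRCm38.p6) matched 4540 of 5636 genes tested. The fit was tested on simulated data. Plots used matplotlib 3.10.9, numpy 2.4.6 and Python 3.11.15. Alternatives covered normalization, pseudocount, filter, variance model, arrays in the fit, a replicate block, the title suffix and leaving out each array.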

Additional observations from a re-analysis of the deposited data

Results flagged for a closer look

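The results below were singled out because the change over the step differed between TSA-treated and untreated cells in a test of the difference itself. In all, 586 of 7453 probe sets passed that test in limma (7.86%). The 6 genes per direction of smallest p are given as the log2 difference, TSA step minus untreated step. More positive with TSA were Mb (6.46, adjusted p = 1.09e-06), Igf2 (4.67, 1.09e-06), Fst (4.03, 2.42e-06), Ckb (3.19, 5.27e-07), Myh7 (3.19, 6.78e-08) and Cox6a2 (3.03, 2.44e-08). More negative with TSA were Txnip (-2.83, adjusted p = 9.07e-05), Ets2 (-2.28, 4.17e-05), Sat1 (-2.26, 4.17e-05), Vcan (-2.22, 0.000132), Gsto1 (-1.73, 1.87e-05) and Plin2 (-1.65, 0.000137). Gsto1, a glutathione transferase, had 2222 and 2517 at 48 h with TSA, against 6725 and 6673 at 24 h with TSA, and in untreated cells 5295 and 5453 at 48 h, against 4419 and 4369 at 24 h. Plin2, which coats lipid droplets, had 3789 and 3472 at 48 h with TSA, against 8838 and 8152 at 24 h with TSA, and in untreated cells 13323 and 16524 at 48 h, against 11002 and 10614 at 24 h. All 12 differences passed without any 1 of the 8 arrays. Mb, Igf2, Myh7 and Cox6a2 were at or below 0 on 1 or both TSA arrays of 24 h, so their differences depend on the pseudocount.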

How the results depend on the processing

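The count of 1405 called probe sets (586 higher, 819 lower) lay between 1056 and 1548 with other pseudocounts, normalizations (quantile or median), filters (none or stricter), a variance trend, the title suffix as a covariate, or only the 10 untreated arrays in the fit. With only the 4 arrays compared, 93 passed (26 higher, 67 lower), although 1605 had an unadjusted p under the threshold; that fit has 2 residual degrees of freedom. Leaving out 1 array gave 876 to 1152 calls, 346 to 432 higher and 512 to 720 lower. The 586 differences of steps (351 more positive, 235 more negative) were 551 to 704 under the same settings (the untreated-only fit aside) and 95 (76 and 19) with only the 8 arrays of these groups, while 1204 probe sets had an unadjusted p under the threshold; leaving out 1 array gave 396 to 591, 236 to 370 and 148 to 234. The compared groups share only replicate number 2, and the deviations of these groups correlated at 0.236. In both groups replicate 2 was also the array without the suffix b, so number and suffix cannot be told apart in this value. At 24 h replicate 3 carried the suffix in both treatments. At 48 h it was replicate 1 in untreated cells and replicate 2 with TSA. Same-numbered TSA and untreated arrays deviated with correlations of -0.0997, -0.0944, 0.172, 0.228 and -0.0984 at 0, 4, 12, 24 and 48 h. As 3 of these 5 are below 0, pairing by number was not established; with the replicate block 1102 step calls and 555 differences passed. Of 178 named genes that passed, 38 did so in every setting, 140 were lost in at least 1 and none changed sign; 12 of 39 that did not pass did so in at least 1. The fit with only the 4 arrays compared lost 139 of the 178 calls. Each setting of normalization, pseudocount, filter or variance model lost 13 or fewer, the 10 untreated arrays alone 24 and the replicate block 29. Where calls were lost with fewer arrays, fewer samples entered the fit.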
